A study of Mus musculus with 13 samples.

Results

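The miRNAs described here are those cut from 3 hairpins, mmu-mir-103-1, mmu-mir-103-2 and mmu-mir-107 in miRBase naming, which lie inside genes for pantothenate kinases in the mouse. Their rule is the hairpin name and uses no measured level, though they were taken up with earlier results of these data known. The 3 hairpins gave 6 pairs of hairpin and mature miRNA and 5 mature miRNAs, of 903 hairpins, 1514 pairs and 1384 mature miRNAs listed in the whole series. Small RNA was sequenced from the prefrontal cortex (PFC) and the hippocampus of mice of 2 genotypes. FVB/N mice are the inbred parent strain. TgR mice carry a transgene for human AChE-R, the stress-inducible 'readthrough' splice form of acetylcholinesterase, driven by a minimal CMV promoter-enhancer, on the same background and without further treatment. There were 3 FVB/N and 4 TgR libraries of PFC and 3 FVB/N and 3 TgR libraries of hippocampus, and each library is taken as 1 mouse. The labels give no age for the sequenced mice and do not say whether a mouse gave both regions. Whole tissue was used, so fewer cells of a type and less of a miRNA in each cell cannot be told apart.

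A miRNA is cut from a hairpin, from either of its arms (5p or 3p), and guides a silencing complex to messenger RNAs that pair with its seed, the bases from 2 to 8. miR-103 and miR-107 are vertebrate miRNAs with the same seed, encoded within introns of the genes for pantothenate kinase, the enzyme that opens coenzyme A synthesis from vitamin B5. They are abundant in brain, and they are known for repressing Dicer and for effects on insulin sensitivity. In the brain they are also studied as regulators of BACE1, the beta-secretase that cuts the amyloid precursor protein.

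The mature sequences are shown first because they determine what a read can be assigned to. All 5 were found in the RefSeq table of mature miRNAs for GRCm38.p6. They are written 5′ to 3′ with the seed in capitals.
miR-103-3p: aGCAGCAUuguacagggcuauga
miR-107-3p: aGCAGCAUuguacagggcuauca
miR-103-1-5p: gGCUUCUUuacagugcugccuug
miR-103-2-5p: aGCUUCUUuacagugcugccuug
miR-107-5p: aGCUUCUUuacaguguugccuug

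The 3p arms of both miRNAs had the seed GCAGCAU, and of the 1679 mature miRNAs in the table only these 2 had it. They were 23 bases long and differed at 1 base, G22C, the first letter being that of miR-103-3p and positions being counted from 1 at the 5′ end. With that base in capitals, the pair reads as follows.
miR-103-3p: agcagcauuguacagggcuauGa
miR-107-3p: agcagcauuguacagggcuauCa

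A read that stops before base 22 is the same for both miRNAs. How such reads were assigned is not given in the sources used here. Only reads that reach base 22 tell miR-103-3p and miR-107-3p apart, and the part of shorter reads in their separate values is not known. The 5p arms shared the seed GCUUCUU. miR-103-1-5p and miR-103-2-5p differed by G1A, and miR-103-2-5p and miR-107-5p by C16U.

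The precursor hairpins, from the same source, show the placement of the arms, here in capitals, and the loops and flanks by which the loci differ.
Mir103-1: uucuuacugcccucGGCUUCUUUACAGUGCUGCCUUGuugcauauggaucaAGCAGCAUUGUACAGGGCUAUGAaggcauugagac
Mir103-2: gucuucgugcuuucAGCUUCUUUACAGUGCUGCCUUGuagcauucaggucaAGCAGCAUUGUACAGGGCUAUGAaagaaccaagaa
Mir107: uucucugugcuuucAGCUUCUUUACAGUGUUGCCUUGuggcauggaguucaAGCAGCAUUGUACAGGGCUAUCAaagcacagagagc

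In GRCm38.p6, Mir103-1 lay at chr11:35782396-35782481 on the plus strand, in intron 5 of Pank3. Mir103-2 lay at chr2:131288052-131288137 on the plus strand of Pank2, within an intron of all 7 annotated transcripts that span it. Mir107 lay at chr19:34820687-34820773 on the minus strand of Pank1, within an intron of all 3 transcripts that span it. Each hairpin had the strand of its host gene, and 0 spanning transcripts had an exon that overlapped it.

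Because both mir-103 hairpins give the same 3p arm, its reads were listed at each. The count at mir-103-2 exceeded that at mir-103-1 by 12 to 56 reads in the 13 libraries, which is 0.111% to 0.200% of the count. The values therefore cannot be divided between the Pank3 and the Pank2 locus. The higher of both counts was used as the single value of miR-103-3p, as for the other mature miRNAs listed at more than 1 hairpin. Levels are given as CPM, the counts relative to the library total, scaled between libraries with TMM factors over all 13 libraries. Summed over all pairs the libraries held 8769851 to 18385985 counts, and over mature miRNAs, each taken 1 time, 5350259 to 11111883.

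miR-103-3p was the more abundant member in every library. In FVB/N PFC it stood at 1724, 1604 and 1927 CPM, with a mean of 1752 ± 163 CPM (SD, n = 3). In TgR PFC the 4 libraries had 1967, 1737, 1728 and 1916 CPM, a mean of 1837 ± 122 CPM (SD, n = 4). Both PFC groups thus overlapped and were narrow. In FVB/N hippocampus the levels were 2407, 3222 and 2033 CPM, with a mean of 2554 ± 608 CPM (SD, n = 3). In TgR hippocampus they were 2518, 2540 and 2477 CPM, with a mean of 2511 ± 32.2 CPM (SD, n = 3). The lowest hippocampal library, at 2033 CPM, was above the highest PFC library, at 1967 CPM.

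miR-107-3p was lower in every library. It stood at 389.7, 398 and 412 CPM in FVB/N PFC, with a mean of 400.0 ± 11.3 CPM (SD, n = 3). In TgR PFC it stood at 434, 457, 434 and 463 CPM, with a mean of 447 ± 15.2 CPM (SD, n = 4). All 4 TgR PFC libraries lay above the 3 FVB/N PFC libraries, by a margin between 412 and 434 CPM. In FVB/N hippocampus it stood at 526, 808 and 478 CPM, with a mean of 604 ± 179 CPM (SD, n = 3). In TgR hippocampus it stood at 648, 670 and 572 CPM, with a mean of 630 ± 51.5 CPM (SD, n = 3). Ranked by CPM within each library, miR-103-3p held places 47 to 66 and miR-107-3p places 97 to 137.

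**Figure D1:**
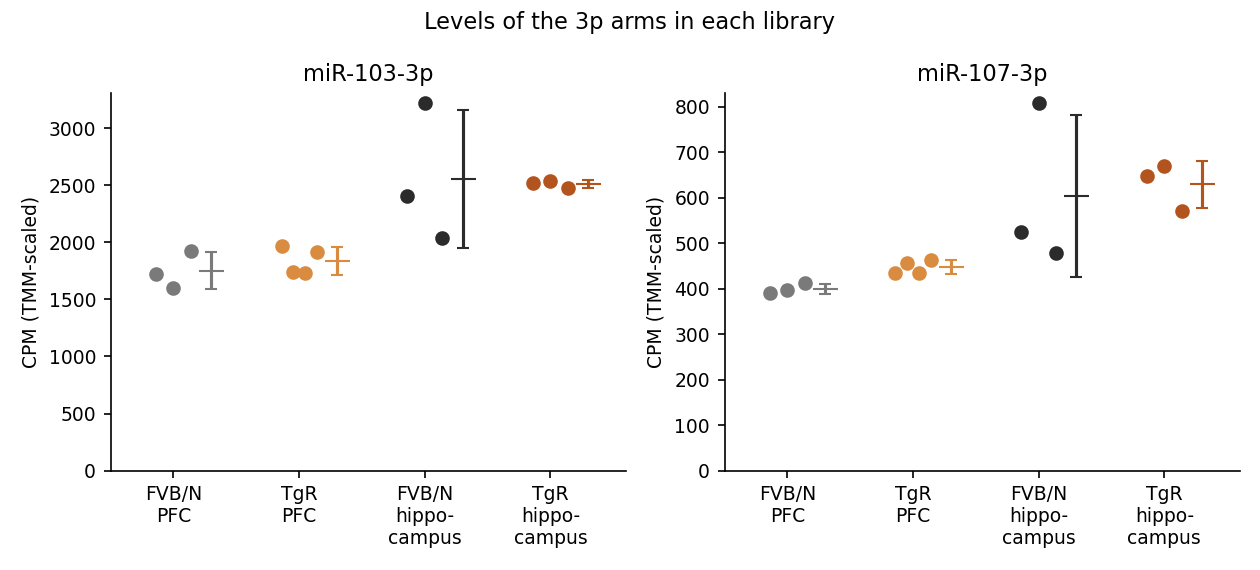
Level of miR-103-3p (left) and miR-107-3p (right) in CPM, scaled with TMM factors, in each of the 13 libraries (points) by genotype and region, with the group mean and SD beside them. All 6 hippocampal libraries lie above all 7 PFC libraries for both, and 1 FVB/N hippocampal library, at 3222 and 808 CPM, lies above every other library.

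One library stood apart for both members. FVB/N hippocampus replicate 2 was the highest of all 13 at 3222 CPM of miR-103-3p and 808 CPM of miR-107-3p. The coefficient of variation in FVB/N hippocampus was 23.8% for miR-103-3p and 29.6% for miR-107-3p, against a median of 14.4% over the 213 miRNAs with at least 100 CPM. In each of the other 3 groups both members varied less than the median miRNA. Without it, the FVB/N hippocampal means were 2220 CPM of miR-103-3p and 502 CPM of miR-107-3p (n = 2). For the members, the main fits, the sum, the ratio of their 3p arms and the correlations that use this library are also given without it. The marker fits and the relatives' counts at an unadjusted p are given with it only.

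The first question of the design is whether AChE-R excess goes with another level of a miRNA within a region. For the members no such difference was detected in either region. In hippocampus the log2 fold change of TgR over FVB/N was -0.04 (SE 0.16, 95% interval -0.39 to 0.32) for miR-103-3p, with an adjusted p of 0.921 (edgeR quasi-likelihood test with Benjamini-Hochberg adjustment over all miRNAs tested). For miR-107-3p it was 0.05 (SE 0.19, 95% interval -0.39 to 0.48), with an adjusted p of 0.921 in the same edgeR test. The call was made for 30 of 619 miRNAs tested in hippocampus, 4.85% (2 to 64 miRNAs under the alternatives), and for 0 of 2 members, of which 0 had an unadjusted p under 0.05 or passed with DESeq2. Without FVB/N hippocampus replicate 2 the values were 0.15 for miR-103-3p and 0.30 for miR-107-3p, with adjusted p of 0.436 and 0.221 in edgeR. The direction in hippocampus was not stable for either member. For miR-103-3p it turned without that library and, to 0.05, when libraries were scaled by their size alone. For miR-107-3p it turned without FVB/N replicate 1, FVB/N replicate 3 or TgR replicate 2, to between -0.0769 and -0.0143.

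In PFC the log2 fold change of TgR over FVB/N was 0.06 (SE 0.11, 95% interval -0.18 to 0.31) for miR-103-3p, with an adjusted p of 0.999 in edgeR. For miR-107-3p, whose groups did not overlap, it was 0.15 (SE 0.10, 95% interval -0.09 to 0.39), with an unadjusted p of 0.179 and an adjusted p of 0.999 in edgeR. A higher level in every TgR than in every FVB/N library of PFC was found for 15 of 628 miRNAs tested, 2.39%, and the edgeR call was made for 1, 0.159%, which was not a member. The intervals leave room for a difference of up to 0.31 for miR-103-3p and 0.39 for miR-107-3p on the log2 scale in PFC.

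The difference between hippocampus and PFC in the genotype effect, fitted over all 13 libraries, was -0.09 (SE 0.20, 95% interval -0.53 to 0.35) for miR-103-3p. For miR-107-3p it was -0.10 (SE 0.23, 95% interval -0.60 to 0.40). The adjusted p was 0.962 for both in edgeR, and 0.464% of the 647 miRNAs tested were called (3 miRNAs, 2 to 16 under the alternatives). Without FVB/N hippocampus replicate 2 both values changed sign, to 0.11 for miR-103-3p and 0.16 for miR-107-3p.

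The second comparison, between the regions, gave the differences that passed a test. It uses the same libraries as the comparison of genotypes, so the values are not independent of those above. Both members were higher in hippocampus than in PFC in TgR mice. The log2 fold change was 0.43 (SE 0.09, 95% interval 0.22 to 0.64) for miR-103-3p, a fold of 1.35, with an adjusted p of 0.0152 (edgeR, Benjamini-Hochberg). It was 0.48 (SE 0.10, 95% interval 0.26 to 0.69) for miR-107-3p, a fold of 1.39, with an adjusted p of 0.0132 in edgeR. In TgR 13.6% of the 633 miRNAs tested were called between regions (86 miRNAs, 43 to 125 under the alternatives) and 6.64% were called higher in hippocampus. Without TgR PFC replicate 3, the lowest of its group for miR-103-3p at 1728 CPM, the values were 0.41 and 0.47 and the adjusted p of edgeR were 0.0602 and 0.052, past the threshold of 0.05 for neither. In a fit that takes the spread from all 13 libraries the TgR values were 0.45 and 0.50 and the call was lost as well, with adjusted p of 0.0545 and 0.0631 in edgeR.

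In FVB/N mice the estimates were as large, but the spread was wider. The log2 fold change of hippocampus over PFC was 0.54 (SE 0.20, 95% interval 0.09 to 0.99) for miR-103-3p, with an adjusted p of 0.205 in edgeR. It was 0.59 (SE 0.23, 95% interval 0.09 to 1.10) for miR-107-3p, with an adjusted p of 0.215 in edgeR. The call was made for 3.58% of the 615 miRNAs tested (22 miRNAs, 6 to 52 under the alternatives) and for 0 of 2 members, both of which had an unadjusted p under 0.05 (0.0226 and 0.0252) in edgeR, as 16.6% of all tested did, and did not pass with DESeq2 (adjusted p 0.259 and 0.222). Without FVB/N hippocampus replicate 2 the values were 0.32 and 0.31, lower by more than 1.5 times, with adjusted p of 0.508 and 0.549 in edgeR. In the fit that takes the spread from all 13 libraries the FVB/N differences were called, at 0.54 and 0.59 with adjusted p of 0.0435 and 0.0496 in edgeR, so which genotype was called depended on the libraries in the fit. The region difference was not shown to differ between genotypes, since its contrast is the one given above, at -0.09 and -0.10 on the log2 scale.

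Over both genotypes, with region and genotype as terms, the log2 fold change of hippocampus over PFC was 0.49 (SE 0.10, 95% interval 0.28 to 0.71) for miR-103-3p. It was 0.54 (SE 0.11, 95% interval 0.30 to 0.78) for miR-107-3p. The adjusted p of edgeR were 0.00348 and 0.00433, and the folds were 1.41 and 1.46. This fit was added after the data were seen. Without FVB/N hippocampus replicate 2 the values were 0.39 and 0.40, with adjusted p of 0.00494 and 0.00454 in edgeR. The call was made for 18.4% of 647 miRNAs and, with hippocampus higher, for 11.0%, so a called difference between these regions was not rare. A level in all 6 hippocampal libraries above all 7 PFC libraries, which both members had, was found for 28 of 647 miRNAs, 4.33%.

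**Figure D2:**
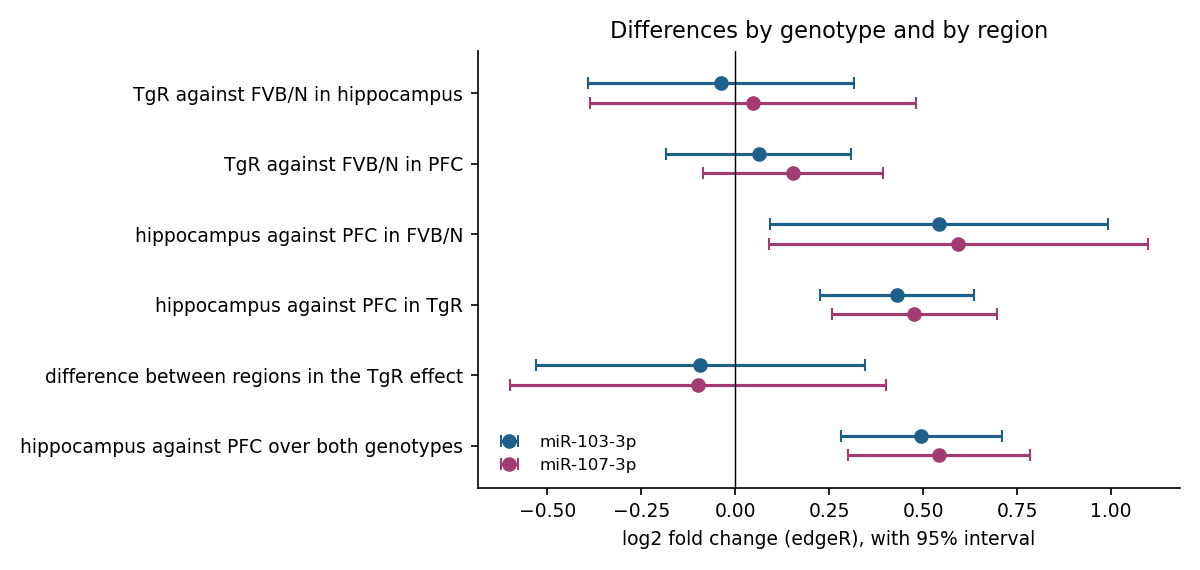
Log2 fold change of miR-103-3p and miR-107-3p (points) with its 95% interval (bars) from edgeR in the 6 comparisons, from TgR over FVB/N within each region to hippocampus over PFC within and over both genotypes. The intervals of the genotype comparisons span 0, and those of the region comparisons lie above 0, from 0.09 to 1.10 in FVB/N and from 0.22 to 0.69 in TgR.

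Since a short read could be assigned to either miRNA, both 3p arms were also summed before the fit, an alternative added after the data were seen. The sum was 0.44 higher in hippocampus on the log2 scale in TgR (SE 0.09, adjusted p 0.0109 in edgeR) and 0.55 in FVB/N (SE 0.20, adjusted p 0.194 in edgeR). Between genotypes the sum gave -0.02 in hippocampus and 0.08 in PFC, with adjusted p of 0.96 and 0.999 in edgeR. The sum without FVB/N hippocampus replicate 2 stood at 0.32 between regions in FVB/N (adjusted p 0.495 in edgeR) and at 0.18 between genotypes in hippocampus (adjusted p 0.354 in edgeR). Within genotypes the sum was called between regions in TgR, as each member was. Its TgR difference was not fitted without TgR PFC replicate 3 or with the spread of all 13 libraries. Each member lost its call in TgR under both of these settings. How reads that end before base 22 enter the sum is not known either.

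The ratio of miR-107-3p to miR-103-3p counts within a library is independent of the scaling between libraries. It was 0.226, 0.248 and 0.214 in FVB/N PFC, and 0.221, 0.263, 0.251 and 0.242 in TgR PFC. In FVB/N hippocampus it was 0.218, 0.251 and 0.235, and in TgR hippocampus 0.257, 0.264 and 0.231. The groups overlapped, within a range of 0.214 to 0.264. The group means ran from 0.229 ± 0.0174 (SD, n = 3) in FVB/N PFC to 0.251 ± 0.0174 (SD, n = 3) in TgR hippocampus. By region, the mean log2 ratio differed by 0.04, hippocampus minus PFC (exact permutation test within genotype, two-sided p = 0.51, adjusted p 0.67 over 8 ratio tests). By genotype it differed by 0.09, TgR minus FVB/N, and by 0.09 in each region (exact permutation test within region, two-sided p = 0.12, adjusted p 0.33). Neither passed the test. When FVB/N hippocampus replicate 2 was left out, the values were 0.0121 by region and 0.12 by genotype (exact permutation test, adjusted p 0.834 and 0.343). The library that stood apart in level had a ratio of 0.251, inside the range of the others.

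**Figure D3:**
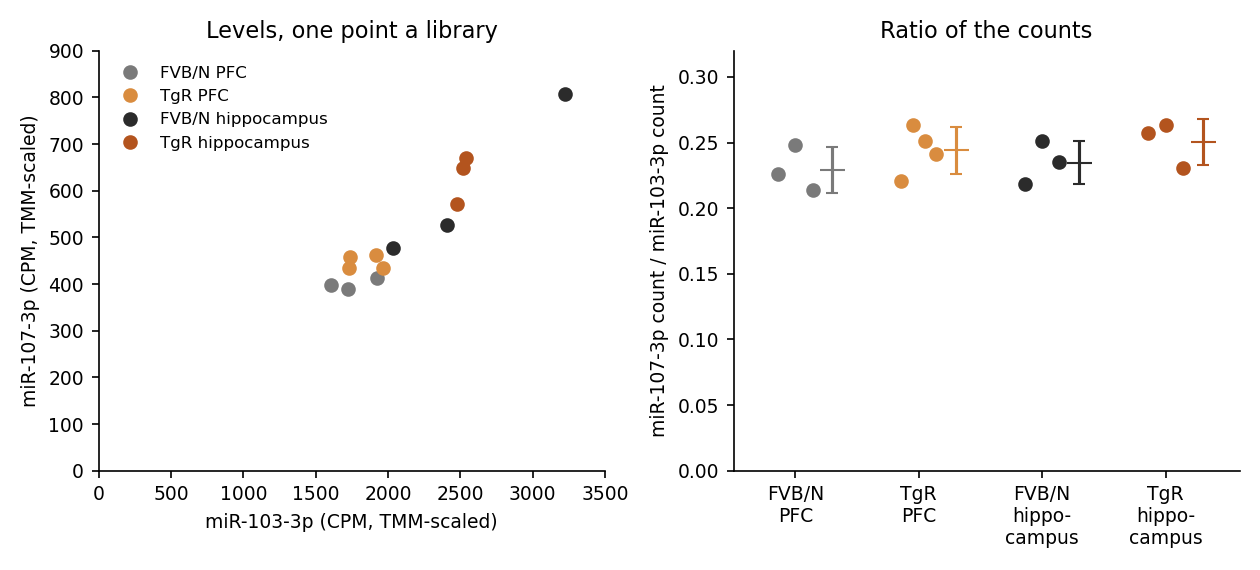
Left, the level of miR-107-3p against that of miR-103-3p in CPM, with 1 point for each of the 13 libraries coloured by group; right, the ratio of miR-107-3p to miR-103-3p counts in each library, with the group mean and SD. The levels of both are higher in the hippocampal libraries than in the PFC libraries, while the ratios of all groups overlap between 0.214 and 0.264.

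The other arm of each hairpin was almost unread. Over all libraries the 5p arms had 39 counts against 317773 of the 3p arms, 0.0123% of the latter. miR-107-5p had 18 counts, 0 to 3 a library, in 10 of 13 libraries. miR-103-2-5p had 17 counts, 0 to 6 a library, in 8 of 13 libraries. miR-103-1-5p had 4 counts, of which 2 were in FVB/N PFC, 2 in TgR PFC and 0 in both hippocampal groups. A count of 0 allows up to 3 counts, 0.265 to 0.545 CPM by library, and only 1 value of a 5p arm, the 6 counts of miR-103-2-5p in FVB/N PFC replicate 1, exceeded 3. These limits cover counting error only. No 5p arm passed the filter on low counts, so of the 5 mature miRNAs 2 were tested across miRNAs.

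The 5p arms of the mir-103 hairpins are the products that differ between the Pank3 and the Pank2 locus. The log2 ratio of miR-103-1-5p to miR-103-3p, with a pseudocount of 0.5, had a difference of -1.46 between hippocampus and PFC (exact permutation test within genotype, two-sided p = 0.01, adjusted p 0.08 over the 8 ratio tests). This arm had 0 reads in all 6 hippocampal libraries and in 10 of 13 libraries, where the ratio is set by the pseudocount and the 3p count, so the test says nothing of the arm itself. Without FVB/N PFC replicate 3 the same test gave an adjusted p of 0.0229, and without FVB/N hippocampus replicate 2 of 0.206. For miR-103-2-5p the region difference was -1.45 (exact permutation p = 0.087, adjusted p 0.33). For miR-107-5p the region difference was -0.26 (exact permutation p = 0.66, adjusted p 0.67). The 3 tests of the 5p arms by genotype gave adjusted p of 0.52 to 0.67 in the exact permutation test. No difference in the use of the arms was detectable at this depth.

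Other miRNAs carry the letters AGCAGC of the members 1 base further in. This group, miR-15, miR-16, miR-195, miR-322, miR-497 and miR-503, is known from studies of the cell cycle and of apoptosis. Its most abundant member is shown here with its seed in capitals, for comparison with the members above.
miR-16-5p: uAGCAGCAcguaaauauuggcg

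AGCAGC began at base 1 in miR-103-3p and miR-107-3p and at base 2 in 8 of the 9 relatives listed, and miR-497b lacked it. Within the first 7 bases, 13 of the 1679 mature miRNAs in the RefSeq table held it. Of the 9 relatives, 7 passed the filter on low counts, and 0 of 7 were called in any of the 6 comparisons by edgeR or by DESeq2. At an unadjusted p under 0.05 in edgeR there were 3 of 7 between genotypes in hippocampus, where 17.4% of all tested miRNAs were, 2 of 7 between regions over both genotypes, where 31.2% were, and 0 in each of the other comparisons.

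miR-16-5p stood at 939 ± 84.3 CPM in FVB/N PFC, 968 ± 218 CPM in TgR PFC, 883 ± 161 CPM in FVB/N hippocampus and 1143 ± 76.2 CPM in TgR hippocampus. Its log2 fold change of hippocampus over PFC was -0.09 in FVB/N (adjusted p 0.87 in edgeR) and 0.23 in TgR (adjusted p 0.372 in edgeR). For miR-195a-5p the same values were 0.41 (adjusted p 0.409) and 0.32 (adjusted p 0.392), and for miR-497a-5p 0.46 (adjusted p 0.471) and 0.55 (adjusted p 0.222), all in edgeR. Not all of the relatives come from separate loci. miR-195a-5p and miR-497a-5p, for instance, start at chr11:70235062 and chr11:70234730. miR-15a-5p, miR-15b-5p, miR-322-5p and miR-503-5p were low, with group means from 3.56 to 36.7 CPM. The median region difference of the 7 relatives was -0.15 in FVB/N, against 0.01 over all miRNAs tested, and 0.23 in TgR, against 0.03. Between genotypes their median was 0.32 in hippocampus, against -0.0014 over all tested, and 0.15 in PFC, against 0.0028. Their medians without FVB/N hippocampus replicate 2 were -0.26 between regions in FVB/N and 0.50 between genotypes in hippocampus, with 0 of 7 called in edgeR, and the FVB/N region values of miR-16-5p, miR-195a-5p and miR-497a-5p were -0.26, 0.20 and 0.15.

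**Figure D4:**
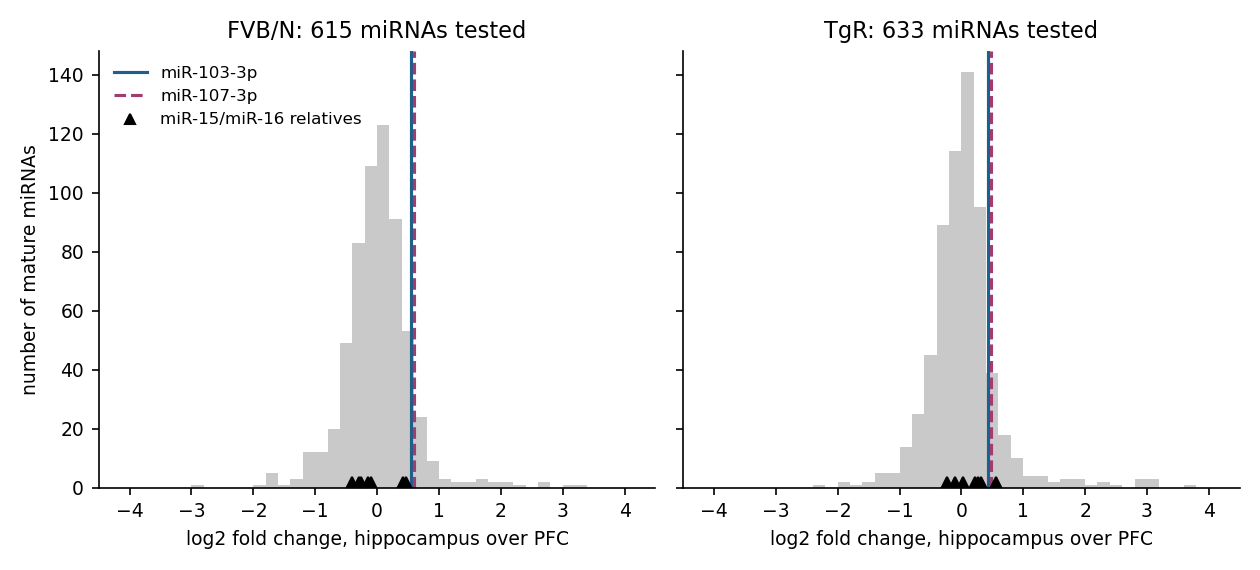
Number of mature miRNAs by log2 fold change of hippocampus over PFC in FVB/N (615 tested) and TgR (633 tested), with miR-103-3p (solid line), miR-107-3p (dashed line) and the 7 tested miR-15/miR-16 relatives (triangles, placed just above the axis). The members lie at 0.54 and 0.59 in FVB/N and at 0.43 and 0.48 in TgR, while the relatives spread from -0.40 to 0.46 and from -0.23 to 0.55.

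Across the 13 libraries the log2 CPM of the members had a Pearson r of 0.949 with each other. Among the other 211 miRNAs with a mean of at least 100 CPM, those most like miR-103-3p were miR-101b-3p (r = 0.915), miR-101a-3p (r = 0.904) and miR-192-5p (r = 0.889). Those most like miR-107-3p were miR-101a-3p (r = 0.886), miR-93-5p (r = 0.851) and miR-101b-3p (r = 0.844). miR-101b-3p, for instance, had means of 757 and 800.2 CPM in FVB/N and TgR PFC and of 1207 and 1270 CPM in FVB/N and TgR hippocampus. The order depended on FVB/N hippocampus replicate 2, which was left out after the data were seen. Without it the members had an r of 0.914 with each other, those most like miR-103-3p were let-7b-5p (r = 0.957), miR-27b-3p (r = 0.916) and miR-101b-3p (r = 0.909), and those most like miR-107-3p were miR-34c-5p (r = 0.864), miR-484 (r = 0.859) and miR-26b-5p (r = 0.845). These correlations are a description over libraries that share their region, genotype and scaling, and they pool both regions.

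Some markers of cell types were called between the regions as well, mostly in TgR. Both oligodendrocyte miRNAs listed, miR-219a-2-3p and miR-338-3p, were read, and their summed level was 587 to 929 CPM in FVB/N PFC and 615 to 743 CPM in TgR PFC. In hippocampus it was 1422 to 2279 CPM in FVB/N and 2146 to 3509 CPM in TgR. miR-219a-2-3p was higher in hippocampus by 1.53 in FVB/N and 2.26 in TgR on the log2 scale, with adjusted p of 0.00611 and 0.00269 in edgeR. miR-338-3p stood at 0.87 in FVB/N, where it was not called (adjusted p 0.124 in edgeR), and at 1.39 in TgR (adjusted p 0.00561). The 2 choroid plexus miRNAs, miR-204-5p and miR-211-5p, summed to 728 to 1100 CPM in FVB/N PFC and 766 to 926 CPM in TgR PFC. In hippocampus they summed to 1114 to 1724 CPM in FVB/N and 1610 to 5272 CPM in TgR. Between regions, miR-204-5p stood at 0.61 in FVB/N (adjusted p 0.205 in edgeR) and 2.13 in TgR (adjusted p 0.00584) on the log2 scale. For miR-211-5p the values were -1.74 in FVB/N (adjusted p 0.198 in edgeR) and 0.59 in TgR (adjusted p 0.155). The 2 thus went in opposite directions in FVB/N.

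The 3 neuronal miRNAs, miR-124-3p, miR-9-5p and miR-128-3p, were read in every library and summed to 315726 to 405478 CPM in FVB/N PFC and 332061 to 400445 CPM in TgR PFC. In hippocampus they summed to 262990 to 308579 CPM in FVB/N and 256526 to 289149 CPM in TgR, below PFC. Of the 3, only miR-128-3p was called between regions in TgR, at -0.68 on the log2 scale (adjusted p 0.00657 in edgeR), while miR-124-3p stood at 0.31 (adjusted p 0.13) and miR-9-5p at -0.08 (adjusted p 0.55). In FVB/N the values were -0.58 for miR-128-3p (adjusted p 0.124 in edgeR), -0.13 for miR-124-3p (adjusted p 0.738) and 0.01 for miR-9-5p (adjusted p 0.982). The 5 red blood cell miRNAs summed to 2013 to 3010 CPM and 2229 to 4184 CPM in FVB/N and TgR PFC, and to 2223 to 2337 CPM and 990 to 1390 CPM in FVB/N and TgR hippocampus. The 4 white blood cell miRNAs were at 772 to 1080 CPM in PFC and 618 to 735 CPM in hippocampus. The 2 endothelial miRNAs were at 18762 to 25699 and 19125 to 21812 CPM in FVB/N and TgR PFC. In hippocampus they were at 15784 to 24311 CPM in FVB/N and 14217 to 16614 CPM in TgR. In TgR, edgeR called miR-451a (-1.55, adjusted p 0.00657), miR-144-5p (-1.16, 0.00365) and miR-144-3p (-1.25, 0.00657) between regions. It also called miR-142a-5p (-0.57, adjusted p 0.00657) and miR-126a-3p (-0.43, adjusted p 0.0192). The other blood and endothelial miRNAs were not called in TgR, and none was called in FVB/N. Between genotypes in hippocampus, edgeR called miR-338-3p (0.60, adjusted p 0.0456) and miR-204-5p (1.48, adjusted p 0.0499) higher in TgR. It called miR-451a (-0.86, adjusted p 0.0286), miR-144-5p (-1.01, 0.0286), miR-486a-5p (-1.10, 0.0328) and miR-486b-5p (-1.08, 0.0349) lower in TgR. No other listed marker was called between genotypes in hippocampus, and none was in PFC. The part of these cell types in the region difference or the genotype comparison of miR-103-3p and miR-107-3p was not tested.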

How the data were processed

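Small RNA was sequenced from 13 mouse brain libraries (300 ng of RNA, RIN 8.6 to 9.3, NEBNext small RNA kit). Per the labels and the study's methods, the authors ran FastQC and then miRExpress against miRBase 21, and deposited raw read counts per pair of hairpin and mature miRNA; pairs without reads are unlisted and were taken as 0. Groups and replicate numbers came from the sample titles.

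Here each mature miRNA was given its highest count over its hairpins. Each comparison was fitted with edgeR 4.0.16 in R 4.3.3 (TMM, filterByExpr with a minimum of 10 counts, quasi-likelihood test), with Benjamini-Hochberg adjustment over all miRNAs tested and a threshold of 0.05. SEs are the log2 fold change over the square root of F. Ratios within libraries were tested by exact permutation within strata. The code of the edgeR fits and of the permutation test was tried on simulated data. Alternatives included DESeq2 1.42.0, other scalings, no filter, and leaving out 1 library at a time. For hairpins that share a miRNA, the deposited pairs were used as rows in the fits and their mean in the ratios.

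Text names every arm of the hairpins, relatives by call or abundance (at most 3 uncalled), and the 3 miRNAs most like each member by Pearson r among those with at least 100 CPM. Members, relatives and marker lists were chosen with earlier results of these data known. Sequences and positions are from RefSeq and GENCODE for GRCm38.p6. The reads carry no molecular identifiers, so depth sets only a lower limit of error, and the p-values measure the spread between these libraries.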

Additional observations from a re-analysis of the deposited data

Results flagged for a closer look

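In TgR PFC, the 2 counts of miR-103-1-5p in replicate 4 stood apart from the other 3 libraries of the group, which had 0 counts each. The criterion, Dixon's at the 95% level, marks about 1 in 20 groups of normally distributed values by chance, and its rate for counts this low was not tested. With 0 counts in the other 3 libraries it marks any count above 0, so the flag says nothing of the size of the count. The 2 counts lie under the limit of 3 that a count of 0 allows.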

How the results depend on the processing

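Over both genotypes, the region difference of each member kept its direction and its call under all 19 alternatives, with log2 fold changes of 0.39 to 0.53 for miR-103-3p and 0.40 to 0.58 for miR-107-3p. In a fit of all 13 libraries the region difference in FVB/N was called, at 0.54 (adjusted p 0.0435 in edgeR) and 0.59 (adjusted p 0.0496), and that in TgR was not, at 0.45 (adjusted p 0.0545) and 0.50 (adjusted p 0.0631); the cause was not tested. Scaling by library size alone moved the median of all miRNAs to 0.13 for the region difference in TgR and to 0.15 for the difference between regions in the genotype effect; miR-103-3p then stood at 0.0501 between genotypes in hippocampus and at 0.0121 for that difference.

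Leaving out 1 library at a time, miR-103-3p ranged from -0.16 to 0.15 between genotypes in hippocampus, -0.0009 to 0.14 in PFC, 0.40 to 0.46 between regions in TgR and -0.22 to 0.11 for the difference. miR-107-3p ranged from -0.0769 to 0.30 in hippocampus, 0.41 to 0.51 between regions in TgR and -0.23 to 0.16 for the difference. The 5p ratio of mir-107 ranged from -0.11 to 0.52 by genotype and -0.61 to 0.0387 by region, and that of mir-103-1 by region from -1.78 to -1.22. Without FVB/N PFC replicate 3, the last passed at an adjusted p of 0.0229 (exact permutation test). With a pseudocount of 5, above all 5p counts but 1, the ratio follows the 3p count: -0.16 by genotype and -0.56 by region (adjusted p 0.0343) for mir-107, -0.79 by region (adjusted p 0.0343) for mir-103-1, and -0.0692 and -0.89 (adjusted p 0.0343) for mir-103-2.

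Counts of called miRNAs moved more. Between genotypes in hippocampus 30 became 49 with DESeq2, 64 with no filter and 2 to 18 without 1 library. Between regions in FVB/N 22 became 36 with DESeq2, 52 with no filter, 49 in the fit of all 13 libraries and 6 to 51 without 1 library. Between regions in TgR 86 became 43 to 125 without 1 library. For the difference 3 became 10 with DESeq2, 16 with no filter and 2 to 8 without 1 library. With the replicate number as a block the count was 17 in hippocampus and 6 for the difference, and no call of a member changed. Of 12 same-numbered pairs, 4 had a correlation of deviations over 0.1 (range -0.43 to 0.59) and 3 libraries correlated best with their own number. Pairs of different genotypes among these cannot be 1 mouse. Between regions of a genotype, 0 of 3 pairs in FVB/N (highest 0.098) and 2 of 3 in TgR (-0.40 to 0.59) exceeded 0.1. So few libraries a group cannot settle whether the numbers pair the samples, and the replicate block is given here only.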
